A study of Homo sapiens with 18 samples.

Results

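A list of 38 interferon-stimulated and antiviral genes was followed by gene symbol through 18 RNA-seq samples of VCaP, an established line of prostate cancer cells whose TMPRSS2:ERG fusion drives the transcription factor ERG. Of the 38 genes, 37 had a row among the 22034 genes of the count table, and PSMB8-AS1, a long noncoding RNA antisense to an immunoproteasome gene, was not analysed here. OASL, IFI35, IFI44L, and RIGI had at most 4, 8, 1, and 12 counts in any sample and did not pass the filter on low counts. The other 33 genes were tested among 14164 genes. The genes were listed for their known function, with earlier results of these data known, and no threshold on a measured value chose them.

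Interferons are secreted proteins with which cells that sense viral RNA or DNA warn themselves and their neighbours. They act through receptor-bound JAK kinases on STAT proteins, and the complex of STAT2 and IRF9 with a further STAT protein binds an element, the ISRE, in front of interferon-stimulated genes. The products of these genes bind or degrade foreign RNA, attach the ubiquitin-like ISG15 to proteins, recruit T cells with chemokines, and load peptides onto HLA class I molecules. In tumor cells, parts of this program are often active at a low level without infection, and it is followed as a link between a cancer cell and the immune system.

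The 6 groups held 3 samples each. VCaP-shERG cells, a VCaP line with a doxycycline-inducible hairpin against ERG in a pLKO-Tet-on-puro vector, received vehicle (DMSO) or doxycycline (Dox) at 1 µg/mL. Parental VCaP cells received DMSO or the small molecule PBITE-1 at 50 µM for 4, 8, or 12 h. The labels give neither the duration of Dox nor the collection time of the DMSO samples, and Dox in cells lacking the hairpin was not analysed here, so that Dox itself and the loss of ERG cannot be told apart. Totals ranged from 11308600 to 17483423 counts per sample, and 3 counts, taken as the floor, were worth 0.171 to 0.269 CPM. CPM are counts brought to a common library size, here with TMM scaling within each experiment, and errors on log2 values are SE. ERG fell from a mean of 447.3 to 164.2 CPM with Dox (log2 fold change -1.45 ± 0.04, SE) and was at a mean of 288.9 CPM with DMSO and 179.9, 93.72, and 97.2 CPM at 4, 8, and 12 h of PBITE-1. All 10 markers of prostate luminal epithelium exceeded 3 counts in every sample, but their summed level was 9800 to 10000 CPM with vehicle, 6080 to 6310 CPM with Dox, 7970 to 8130 CPM with DMSO, and 3390 to 3960 CPM at 12 h. Leukocyte markers summed to 1.51 to 4.09 CPM in any sample, fibroblast markers to 1.39 to 2.18 CPM with vehicle, 7.43 to 8.95 CPM with Dox, and at most 9.89 CPM, and endothelial markers to 0.281 to 2.64 CPM. The B cell marker MS4A1 was at 0 in all groups. The part of these shifts in the results was not tested.

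In front of the genes, the ISRE core was common. Promoters, taken as 250 bases before to 50 bases after the start site in RefSeq (GRCh38.p14), were found for 32 of the 38 genes, and none for IFIT2, OAS2, OASL, USP18, IRF2, and IRF7. GAAA followed after 2 bases by GAAA, on either strand, stood in 20 of the 32 promoters (62.5%) and in 1255 of all 35116 promoters (3.57%). TTCNNNGAA, the core of the gamma-activated site (GAS) of STAT proteins, stood in 9 (28.1%) and in 7.66% of all promoters. CCGGAA or AGGAAG, cores bound by ETS factors such as ERG, stood in 12 (37.5%) and in 45.4% of all promoters. A match of ISRE and GAS shared bases in IFI27 alone, and no match of either shared a base with an ETS core. The promoters of the 2 chemokines that moved apart, of the gene that rose most after ERG knockdown, and of the factor that rose most at 4 h of PBITE-1 are printed 5′ to 3′ on the strand of the gene, with ISRE cores in capitals for IFIT1 (chr10:89392373-89392672, plus strand) and CXCL10 (chr4:76023448-76023747, minus strand) and GAS cores in capitals for CXCL11 (chr4:76036021-76036320, minus strand) and IRF1 (chr5:132490724-132491023, minus strand).
IFIT1: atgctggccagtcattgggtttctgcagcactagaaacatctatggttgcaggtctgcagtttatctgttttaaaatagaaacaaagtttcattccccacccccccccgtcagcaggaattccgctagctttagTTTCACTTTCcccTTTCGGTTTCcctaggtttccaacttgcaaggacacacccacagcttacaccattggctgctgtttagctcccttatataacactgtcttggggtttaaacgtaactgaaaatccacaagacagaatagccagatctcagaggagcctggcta
CXCL10: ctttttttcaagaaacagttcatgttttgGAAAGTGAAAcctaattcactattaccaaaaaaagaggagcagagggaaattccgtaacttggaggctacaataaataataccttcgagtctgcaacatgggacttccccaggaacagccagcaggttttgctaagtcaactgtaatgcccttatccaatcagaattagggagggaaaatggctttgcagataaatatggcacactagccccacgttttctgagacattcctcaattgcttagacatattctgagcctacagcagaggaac
CXCL11: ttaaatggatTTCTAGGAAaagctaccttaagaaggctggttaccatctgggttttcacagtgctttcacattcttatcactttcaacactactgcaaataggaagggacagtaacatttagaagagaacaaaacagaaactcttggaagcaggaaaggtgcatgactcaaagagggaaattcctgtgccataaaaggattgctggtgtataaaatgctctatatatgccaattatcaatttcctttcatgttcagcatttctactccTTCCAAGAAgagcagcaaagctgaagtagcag
IRF1: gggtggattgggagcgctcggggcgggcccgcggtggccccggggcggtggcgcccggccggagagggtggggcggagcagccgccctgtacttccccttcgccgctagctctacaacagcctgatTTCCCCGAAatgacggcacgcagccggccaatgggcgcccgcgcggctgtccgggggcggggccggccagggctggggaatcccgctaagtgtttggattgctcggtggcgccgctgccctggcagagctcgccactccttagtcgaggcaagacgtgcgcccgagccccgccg

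The matches of IFIT1 began at -116 and -103 from the start site, and that of CXCL10 at -221. CXCL11 had no ISRE core in its window and GAS cores at -240 and 18, and IRF1 a GAS core at -124. Of the 14 genes higher after knockdown that had a promoter, 9 held an ISRE core, as did 8 of the 12 that were not called. At 12 h of PBITE-1 the counts were 4 of 7 higher, 3 of 6 lower, and 11 of 15 not called genes. These counts are a description and were not tested. A match is a string of letters and not a measured binding site.

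A gene counted as called when its log2 fold change exceeded 1 in either direction with an adjusted p under 0.05. Upon ERG knockdown, 15 of the 33 genes tested were called higher, a share of 45.5% against 12.0% of all genes tested, and 2 were called lower, against 7.19%. Over the 33 genes the median log2 fold change was 0.80, against 0.02 over all genes, and 29 were positive. In bulk RNA, fewer cells with a transcript and less of it per cell cannot be told apart. With PBITE-1, the calls were fewer at first and went both ways. At 4 h, 4 genes were called higher (7.28% of all genes) and 1 lower (2.99%). At 8 h, 9 were higher (14.9% of all genes) and 4 lower (8.86%). At 12 h, 10 were higher, a share of 30.3% against 17.1% of all genes, and 7 lower, a share of 21.2% against 15.4%. Median log2 fold changes of the 33 genes were 0.14, 0.35, and 0.52 at 4, 8, and 12 h. The 3 times share the DMSO samples.

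**Figure D1:**
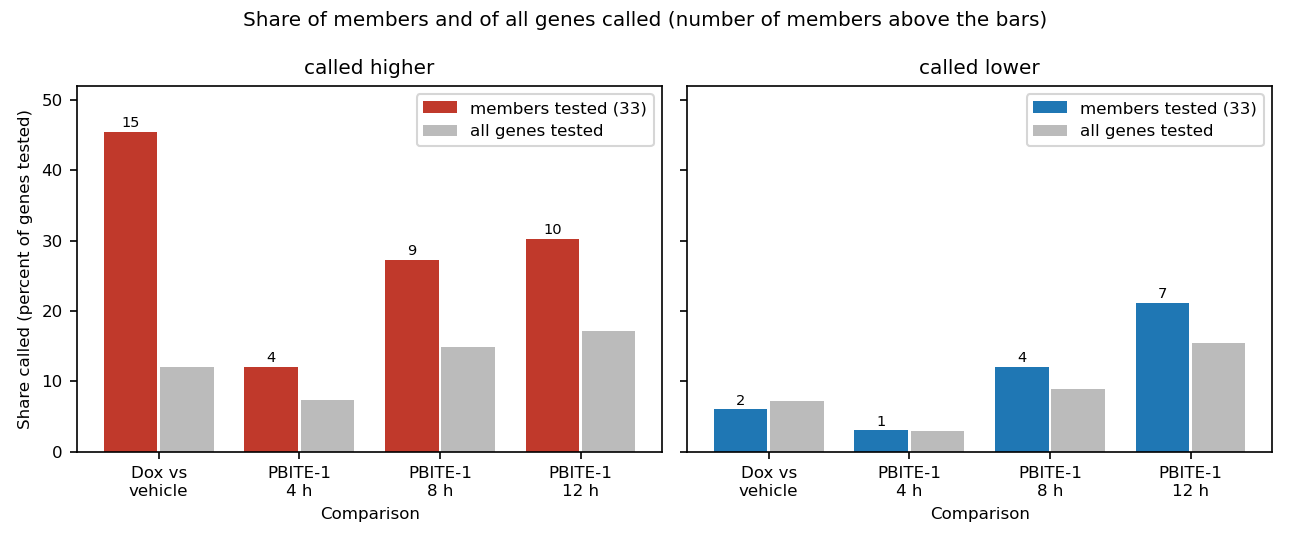
Share of genes called higher (left) and lower (right) in percent, for the 33 interferon-stimulated genes tested (colored bars, with the number of genes) and for all 14164 genes tested (grey bars), upon ERG knockdown and at 3 times of PBITE-1. The bar of 15 genes higher upon knockdown stands at 45.5% beside 12.0% of all genes, and at 12 h the bars of 10 higher and 7 lower genes stand closer to their grey neighbours.

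The filter can pass a gene on the strength of the group where it is high. With genes kept instead by a mean of at least 10 counts over all samples, 31 of the list were tested, and upon knockdown 14 were higher and 2 lower, against 10.9% and 7.13% of 13412 genes. With at least 10 counts in every sample, 23 of the list were tested, and 8 were higher and 1 lower, against 7.75% and 6.34% of 11807 genes. With PBITE-1 the filter on the mean left 3 higher and 1 lower at 4 h (6.89% and 2.77% of all genes), 7 and 4 at 8 h (14.2% and 8.43%), and 8 and 7 at 12 h (16.3% and 15.1%). OAS2 and IFI27, both below a mean of 10 counts, were not tested under it. The mean also takes in the group where a gene is high. IFIT1 had 13 counts over the 3 vehicle samples, 13 over the 3 DMSO samples, and 161 over the 3 Dox samples. With at least 10 counts in every sample, IFIT1, IFIT3, OAS2, MX1, ISG20, IFI6, IFI27, IFI44, SAMD9, and CXCL10 were not tested. Scaling by library size alone moved the median of all genes upon knockdown from 0.02 to 0.28 on the log2 scale and the share of higher among all called genes from 62.5% to 82.8%. Under that scaling 18 of the 33 were called higher and 2 lower, against 17.2% and 3.57% of all genes, and their median was 1.06.

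Across the 4 comparisons with a treatment, IFIT3, UBE2L6, IFI44, and CXCL10 were called in opposite directions, and IFIT5, ISG15, TRIM25, DTX3L, IRF2, IRF9, TAP1, and B2M were called in none. How often either pattern occurred among all genes tested was not counted, so neither is shown to be particular to the list.

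**Figure D2:**
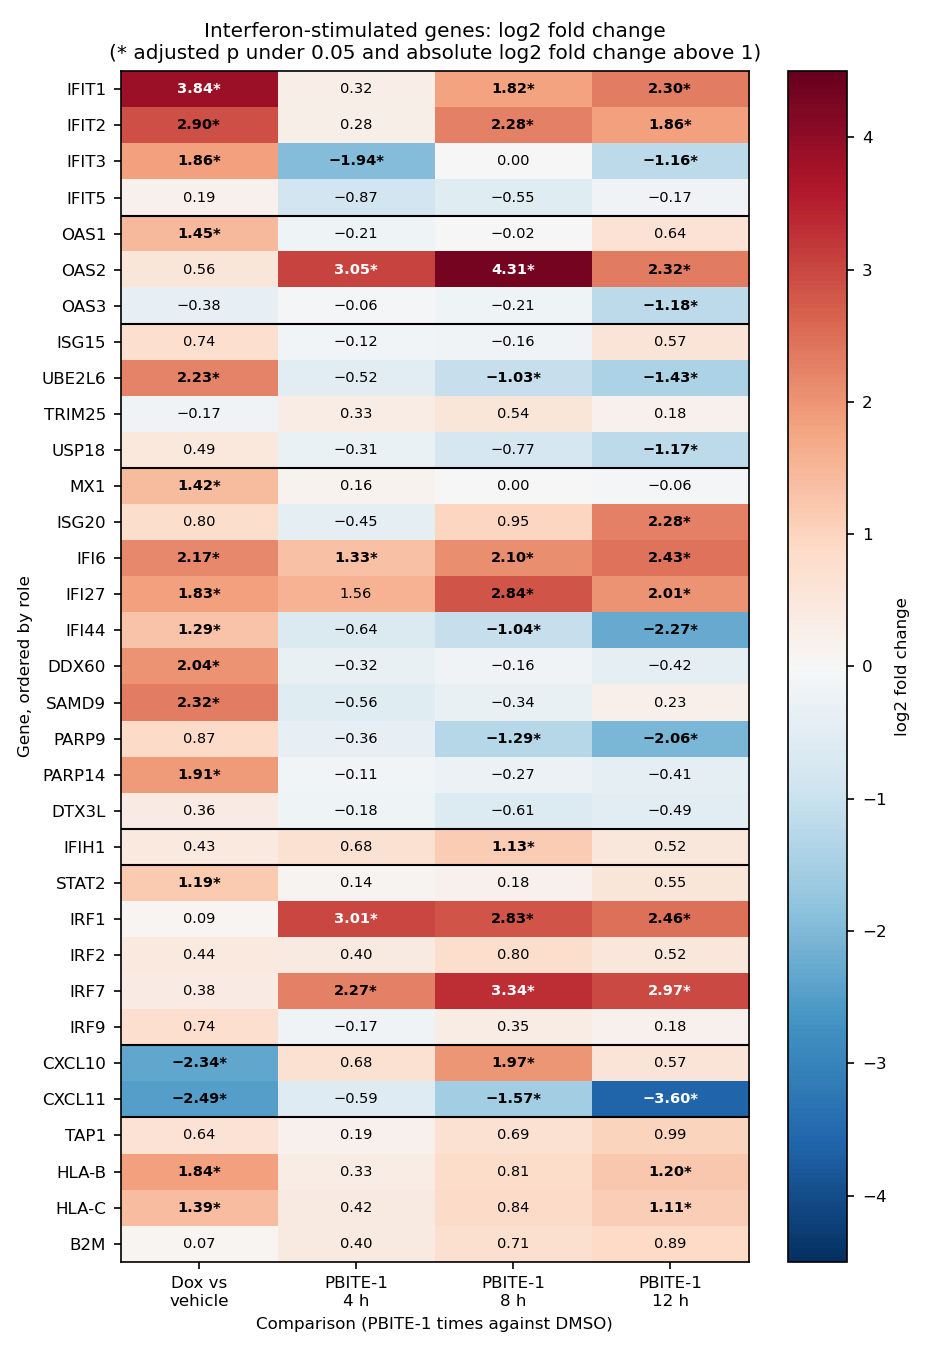
Log2 fold changes of the 33 genes tested (rows, ordered by role, with lines between the roles) upon ERG knockdown and at 4, 8, and 12 h of PBITE-1 against DMSO (columns). Asterisks mark calls, red is higher and blue lower; the first column is mostly red but for CXCL10 (-2.34) and CXCL11 (-2.49), and the last column holds 10 called red and 7 called blue cells.

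Levels were low for much of the list. With DMSO, 10 of the 37 genes in the table had a mean below 1 CPM, 14 lay between 1 and 10 CPM, and 13 at 10 CPM or more. With Dox, 7 were below 1 CPM and 17 at 10 CPM or more. Per kb of exon, B2M, the light chain of HLA class I, was the highest in all 6 groups, from 29.2 CPM per kb with DMSO to 54.1 at 12 h. CXCL11 followed with 19.7 CPM per kb with DMSO, while IFIT1 was at 0.0569 and OAS2 at 0.01.

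The IFIT proteins bind viral RNA by its unusual ends and block its translation. IFIT1 was at 0.0831, 0.608, and 0.225 CPM in the 3 samples with vehicle and at 4.36, 3.73, and 4.11 CPM with Dox. All Dox samples were above all vehicle samples, with the largest log2 fold change of the list upon knockdown (log2 fold change 3.84 ± 0.49, adjusted p = 1.18e-07). The 13 counts with vehicle against 161 with Dox give a ratio of 12.6 with an exact 95% interval of 7.15 to 24.2, for counting error only. In parental cells it was at 0.263, 0.183, and 0.342 CPM with DMSO, 0.412, 0.148, and 0.517 CPM at 4 h, 0.875, 1.31, and 0.807 CPM at 8 h, and 1.56, 0.915, and 1.88 CPM at 12 h. It rose by 8 h and stayed up at 12 h (log2 fold change 2.3 ± 0.50, adjusted p = 8.67e-05), below its level with Dox.

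IFIT2, a partner of IFIT1, was the gene of this family with the most reads among those that rose. Vehicle samples had 1.58, 1.62, and 1.35 CPM and Dox samples 14.7, 9.71, and 10.5 CPM (log2 fold change 2.9 ± 0.28, adjusted p = 6.7e-10). PBITE-1 left it at 4.86, 4.58, and 3.77 CPM at 4 h, against 2.96, 3.78, and 4.05 CPM with DMSO, and it reached 18.1, 18.6, and 15.8 CPM at 8 h (log2 fold change 2.28 ± 0.17, adjusted p = 7.72e-15). At 12 h it was at 10.4, 15.1, and 13.9 CPM (log2 fold change 1.86 ± 0.18, adjusted p = 3.75e-12). The 8 h and 12 h samples lay above all DMSO samples.

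IFIT3, which binds IFIT1 and steadies it, did not follow its neighbours. It rose upon knockdown from 0.665, 0.406, and 0.374 CPM to 2.62, 1.01, and 2.02 CPM (log2 fold change 1.86 ± 0.46, adjusted p = 0.000898). In parental cells it fell from 0.854, 0.854, and 0.913 CPM to 0.33, 0.0738, and 0.296 CPM at 4 h (log2 fold change -1.94 ± 0.56, adjusted p = 0.00405), was back at 1.23, 0.757, and 0.627 CPM at 8 h, and was lower again at 12 h, at 0.595, 0.261, and 0.336 CPM (log2 fold change -1.16 ± 0.48, adjusted p = 0.0271). These are 1 to 21 counts a sample, and both calls hang on single libraries. Without replicate 2 at 4 h the log2 fold change there was -1.37 (adjusted p = 0.0552), and at 12 h it was -1.13 (adjusted p = 0.0503) without DMSO replicate 3, -0.92 (adjusted p = 0.116) without replicate 2, -1.10 (adjusted p = 0.0722) without replicate 3, and -1.15 (adjusted p = 0.063) by DESeq2. IFIT5, which binds RNA with phosphates at its end, ranged from 7.6 to 23.09 CPM over all samples and was not called, with its lowest log2 fold change at 4 h (log2 fold change -0.87 ± 0.12, adjusted p = 1.63e-07) short of the threshold on size.

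The oligoadenylate synthetases sense double-stranded RNA and answer it by making a small messenger molecule. The 3 that were tested each moved in a way of their own. OAS1 was at 2.41, 2.91, and 1.95 CPM with vehicle and at 8.21, 4.58, and 7.67 CPM with Dox, without overlap (log2 fold change 1.45 ± 0.26, adjusted p = 1.7e-05). With PBITE-1 it was not called, at 2.89, 1.89, and 1.83 CPM with DMSO, 2.64, 1.25, and 1.92 CPM at 4 h, 1.98, 2, and 2.42 CPM at 8 h, and 3.65, 2.55, and 4.03 CPM at 12 h, where the log2 fold change of 0.64 (adjusted p = 0.0218) missed the threshold on size. OAS2 was the reverse. It had 0 counts in each vehicle sample and 1 count over the 3 Dox samples together. The fitted log2 fold change upon knockdown (0.56 ± 1.00) rests on this 1 count and gives no usable size, but is among the 29 positive values. With DMSO, OAS2 had 2, 0, and 1 counts. At 4 h it had 11, 4, and 10 counts, at 8 h 26, 21, and 15, and at 12 h 5, 6, and 4. All PBITE-1 samples exceeded the DMSO samples, and the ratio of summed counts to DMSO, scaled for depth, was 10.4 at 4 h (exact 95% interval 3.19 to 54), 23.7 at 8 h (interval 7.74 to 118), and 5.63 at 12 h (interval 1.59 to 30.4). OAS2 passed the filter on low counts through the PBITE-1 samples and was not tested under the filter on the mean. All 3 times were called (adjusted p = 0.000752, 9.34e-07, and 0.00679), the last not without DMSO replicate 2 (adjusted p = 0.056). OAS3, the synthetase for long double-stranded RNA, had by far the highest level of the family and fell late, from 71, 72, and 73.3 CPM with DMSO to 31.1, 30.8, and 33.7 CPM at 12 h (log2 fold change -1.18 ± 0.07, adjusted p = 4.34e-18). At 4 h it was at 61.8, 73.7, and 71.9 CPM and at 8 h at 62.2, 58.8, and 68 CPM. Upon knockdown it went from 90.2, 82.8, and 80.3 CPM to 69.1, 64, and 60.8 CPM and was not called (log2 fold change -0.38 ± 0.06, adjusted p = 1.66e-06). OASL, a member without enzyme activity, had 11 counts over all samples together.

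ISG15 is joined to target proteins by the E2 enzyme UBE2L6 and E3 ligases such as TRIM25, and is removed by USP18, which also restrains the interferon receptor. ISG15 itself was at 2.24, 4.53, and 1.95 CPM with vehicle and 5.59, 5.05, and 3.57 CPM with Dox, which overlap, and was not called (log2 fold change 0.74 ± 0.27, adjusted p = 0.0148). The call was made without vehicle replicate 2, at a log2 fold change of 1.15. UBE2L6 rose from 3.24, 1.69, and 3.22 CPM to 11.3, 12.4, and 12.6 CPM upon knockdown (log2 fold change 2.23 ± 0.21, adjusted p = 6.35e-10). With PBITE-1 it went the other way, from 4.73, 3.29, and 2.63 CPM with DMSO to 3.13, 1.77, and 2.44 CPM at 4 h, 1.63, 1.93, and 1.34 CPM at 8 h, and 1.27, 1.18, and 1.28 CPM at 12 h (log2 fold change -1.43 ± 0.30, adjusted p = 5.5e-05). All 12 h samples were below all DMSO samples. The call at 8 h (log2 fold change -1.03) was lost without DMSO replicate 1 (-0.82) or PBITE-1 replicate 3 (-0.94), each at an adjusted p under 0.05.

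USP18 was at 8.21, 7.14, and 7.13 CPM with DMSO and fell to 3.42, 3.01, and 3.49 CPM at 12 h (log2 fold change -1.17 ± 0.19, adjusted p = 5.64e-07), after 6.18, 6.49, and 5.39 CPM at 4 h and 4.9, 3.3, and 5.2 CPM at 8 h. It was at 9.06, 9.67, and 10.4 CPM with vehicle and 12.2, 15.2, and 13.9 CPM with Dox and was not called there (log2 fold change 0.49). TRIM25 ranged from 88.26 to 135.7 CPM over all samples and was not called. Its log2 fold change upon knockdown was -0.17 and became 0.09 when scaled by library size alone.

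Other antiviral effectors made up the largest group. All 10 that were tested had a positive log2 fold change upon knockdown, and 7 were called higher, a share of 70% against 12.0% of all genes, with a median of 1.62. At 12 h of PBITE-1, 3 were higher, a share of 30% against 17.1%, and 2 lower, a share of 20% against 15.4%, with a median of -0.23. PARP14, an ADP-ribosyltransferase, was the clearest case upon knockdown. It rose from 13.1, 13.5, and 17.2 CPM to 54.6, 53.7, and 55.7 CPM (log2 fold change 1.91 ± 0.09, adjusted p = 3.21e-16). In parental cells it was at 17.5, 16.5, and 17.6 CPM with DMSO, 13.6, 18.1, and 16.2 CPM at 4 h, 14.6, 14.9, and 13 CPM at 8 h, and 13.3, 12.7, and 13 CPM at 12 h. DDX60, a helicase-like protein, rose from 2.16, 1.76, and 2.62 CPM to 7.92, 9.79, and 9.07 CPM (log2 fold change 2.04 ± 0.22, adjusted p = 6.78e-09). SAMD9, which blocks translation of poxviruses, rose from 0.582, 0.744, and 0.898 CPM to 5.01, 3.26, and 3.33 CPM (log2 fold change 2.32 ± 0.35, adjusted p = 2.08e-06). MX1, a GTPase that traps viral particles, rose from 2.33, 1.56, and 1.35 CPM to 5.23, 4.2, and 4.18 CPM (log2 fold change 1.42 ± 0.26, adjusted p = 3.08e-05). None of these 4 was called at any time of PBITE-1. DDX60 was at 3.87, 4.09, and 4.74 CPM with DMSO, 3.21, 2.51, and 4.73 CPM at 4 h, 3.67, 3.58, and 4.3 CPM at 8 h, and 3.5, 3.66, and 2.49 CPM at 12 h. SAMD9 stood at 1.84, 2.01, and 1.6 CPM with DMSO, 1.32, 1.4, and 0.961 CPM at 4 h, 1.52, 1.24, and 1.52 CPM at 8 h, and 1.79, 2.03, and 2.55 CPM at 12 h. For MX1 the levels were 1.45, 0.976, and 1.08 CPM with DMSO, 1.15, 1.25, and 1.4 CPM at 4 h, 1.23, 1.17, and 0.986 CPM at 8 h, and 0.595, 1.18, and 1.75 CPM at 12 h.

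IFI6 and IFI27, small membrane proteins of the endoplasmic reticulum and mitochondria, were higher in both experiments. IFI6 rose upon knockdown from 0.665, 0.541, and 0.599 CPM to 3.78, 1.87, and 3.1 CPM (log2 fold change 2.17 ± 0.40, adjusted p = 2.89e-05). In parental cells it went from 0.46, 0.183, and 1.03 CPM with DMSO to 0.824, 1.11, and 1.77 CPM at 4 h, 1.92, 1.58, and 3.14 CPM at 8 h, and 2.31, 2.61, and 2.82 CPM at 12 h (log2 fold change 2.43 ± 0.44, adjusted p = 5.13e-06). DMSO replicate 3 overlapped with the 4 h samples, and the call at 4 h (log2 fold change 1.33) was lost without DMSO replicate 2 (0.74, adjusted p = 0.218), without replicate 3 at 4 h (1.04, adjusted p = 0.124), and with no filter on low counts (1.33, adjusted p = 0.0646). IFI27 had 2, 7, and 3 counts with vehicle and 15, 9, and 20 with Dox (log2 fold change 1.83 ± 0.53, adjusted p = 0.00323). With PBITE-1 it had 6, 5, and 2 counts at 4 h, 16, 10, and 8 at 8 h, and 9, 3, and 9 at 12 h, against 0, 3, and 3 with DMSO. The 8 h samples were all above DMSO (log2 fold change 2.84 ± 0.70, adjusted p = 0.000477), and replicate 2 at 12 h was close to DMSO (log2 fold change 2.01 ± 0.74, adjusted p = 0.0135, and 1.16 with adjusted p = 0.133 without DMSO replicate 1).

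ISG20, an exonuclease that degrades single-stranded RNA, was called with PBITE-1 and not upon knockdown (log2 fold change 0.8 ± 0.54, adjusted p = 0.187). With vehicle it was at 0.831, 0.203, and 0.374 CPM and with Dox at 1.02, 0.389, and 0.852 CPM. It was at 0.591, 0.976, and 0.457 CPM with DMSO, 0.577, 0.443, and 0.369 CPM at 4 h, 1.23, 1.31, and 1.26 CPM at 8 h, and 3.27, 3.07, and 3.29 CPM at 12 h (log2 fold change 2.28 ± 0.34, adjusted p = 1.12e-07). All 12 h samples were above the rest. The log2 fold change at 8 h was 0.95, and 1.25 without DMSO replicate 2, where it was called. IFI44 was higher with Dox, at 2.76, 2.88, and 3.26 CPM against 0.997, 1.28, and 1.27 CPM with vehicle (log2 fold change 1.29 ± 0.30, adjusted p = 0.000389). In parental cells it fell from 1.71, 1.46, and 1.43 CPM with DMSO through 0.989, 1.11, and 0.813 CPM at 4 h and 0.641, 0.688, and 0.896 CPM at 8 h to 0.298, 0.392, and 0.202 CPM at 12 h (log2 fold change -2.27 ± 0.46, adjusted p = 2.57e-05). Its call at 8 h (log2 fold change -1.04) was lost without DMSO replicate 1 (-0.97) or without PBITE-1 replicate 1 (-0.93, adjusted p = 0.0502).

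PARP9, an inactive ADP-ribosyltransferase, works with the ubiquitin ligase DTX3L, and their genes share 217 exon bases on opposite strands. PARP9 was at 28.6, 29.7, and 29.7 CPM with DMSO, 23.7, 22.8, and 22.2 CPM at 4 h, 11.3, 11.5, and 13.7 CPM at 8 h, and 7.44, 8.04, and 5.78 CPM at 12 h, with no overlap between any 2 of these groups (log2 fold change -2.06 ± 0.12, adjusted p = 1.87e-18). With Dox it was at 60.4, 64.4, and 59.6 CPM against 31.7, 35.2, and 33.7 CPM with vehicle. The log2 fold change of 0.87 (adjusted p = 4.28e-12) missed the threshold on size and passed it, at 1.13, when scaled by library size alone. DTX3L had log2 fold changes of 0.36 upon knockdown and -0.49 at 12 h, and was not called. IFI35, which binds NMI, and IFI44L, a paralog of IFI44, had 44 and 3 counts over all samples together.

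Of the sensors of double-stranded RNA, IFIH1 encodes MDA5 and RIGI encodes RIG-I. IFIH1 was at 12.5, 12.9, and 13.4 CPM with DMSO and 21.1, 20, and 21.2 CPM at 4 h, and rose to 27.5, 27.6, and 30.4 CPM at 8 h (log2 fold change 1.13 ± 0.10, adjusted p = 4.95e-13). At 12 h it was at 16.2, 22, and 17.5 CPM. The log2 fold changes of 0.68 at 4 h and 0.52 at 12 h missed the threshold on size. It was at 15.9, 17.7, and 18.3 CPM with vehicle and 25.6, 22.1, and 22.1 CPM with Dox, a log2 fold change of 0.43. RIGI had 0 to 12 counts a sample and 82 in all.

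Of the 5 transcription factors, STAT2 was called upon knockdown alone, and IRF1 and IRF7 at all 3 times of PBITE-1 and not upon knockdown. STAT2, a subunit of the factor that binds the ISRE, rose upon knockdown from 37.8, 33.9, and 37.3 CPM to 91.1, 77.9, and 78.1 CPM (log2 fold change 1.19 ± 0.07, adjusted p = 3.28e-14). Its DNA-binding partner IRF9 went from 8.14, 6.15, and 8.16 CPM to 14.1, 11, and 11.9 CPM without overlap, at a log2 fold change of 0.74 (adjusted p = 5.35e-05) that was not called. It passed 1 only when scaled by library size alone (1.01). In parental cells STAT2 was at 35.2, 37.4, and 37.5 CPM with DMSO, 36.4, 45.2, and 39.6 CPM at 4 h, 41.7, 42, and 41.4 CPM at 8 h, and 59.8, 47.3, and 55.9 CPM at 12 h. With PBITE-1 the log2 fold changes of STAT2 were 0.14, 0.18, and 0.55 at the 3 times and those of IRF9 -0.17, 0.35, and 0.18. The response of STAT2 at 12 h differed from that to Dox by -0.68 ± 0.11 (adjusted p = 3.59e-07), short of the threshold on size.

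IRF1, an activator that binds ISRE-like sites by itself, and IRF7, the main inducer of interferon genes in infected cells, rose with PBITE-1 from the first time on. IRF1 was at 5.49, 5.34, and 6.29 CPM with vehicle and 4.72, 6.6, and 7.28 CPM with Dox, which overlap (log2 fold change 0.09 ± 0.18, SE). In parental cells it was at 5.85, 7.38, and 6.9 CPM with DMSO, and by 4 h of PBITE-1 it had risen to 60.9, 51.7, and 50.9 CPM (log2 fold change 3.01 ± 0.13, adjusted p = 1.27e-21). It was at 48.4, 45.8, and 50.3 CPM at 8 h and at 33.6, 42.8, and 35.1 CPM at 12 h (log2 fold change 2.46 ± 0.13, adjusted p = 1.86e-19). IRF7 was at 8.31, 6.08, and 6.66 CPM with vehicle and 10.4, 9.32, and 7.36 CPM with Dox (log2 fold change 0.38). With PBITE-1 it rose from 5.19, 4.03, and 3.42 CPM with DMSO to 20.7, 21.2, and 18 CPM at 4 h, 40.5, 41.8, and 43.6 CPM at 8 h (log2 fold change 3.34 ± 0.15, adjusted p = 3.3e-22), and 30.8, 34.9, and 31.5 CPM at 12 h. IRF2, which competes with IRF1, ranged from 10.61 to 27.38 CPM and was not called, with log2 fold changes of 0.40 to 0.80. An exon of IRF1 shares 469 bases with a gene annotated on the opposite strand.

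**Figure D3:**
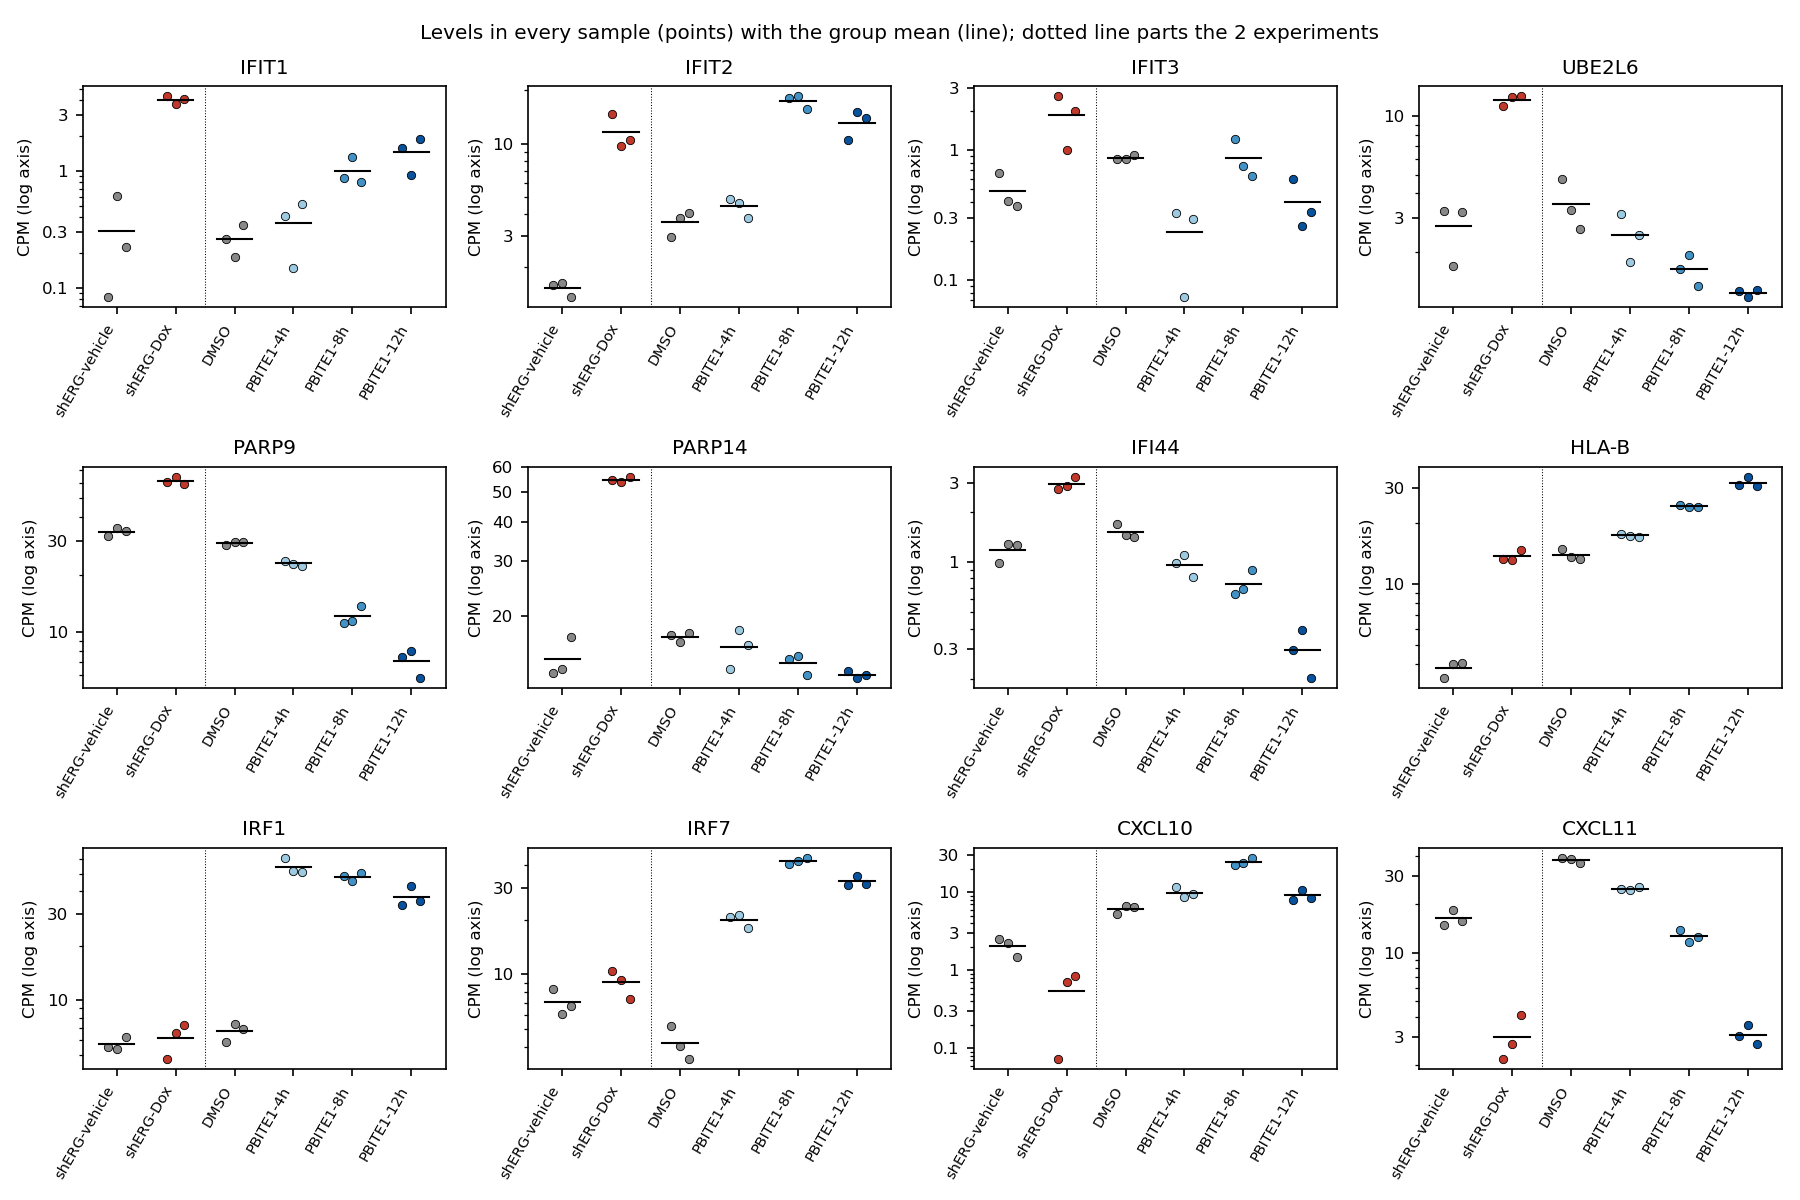
CPM on a log axis in each of the 3 samples of the 6 groups (points) with the group mean (line) for 12 of the genes, with the shERG experiment to the left of the dotted line and the PBITE-1 experiment to the right. IFIT1, UBE2L6, PARP14, and HLA-B stand higher with Dox than with vehicle, IRF1 and IRF7 rise at 4 h of PBITE-1 and hardly with Dox, and CXCL11 falls from about 37.6 CPM with DMSO to 3.09 CPM at 12 h.

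CXCL10 and CXCL11 encode ligands of CXCR3, the receptor with which activated T cells follow interferon-driven chemokines. The genes lie close together on the minus strand of chromosome 4, and both fall within the span of ART3 on the plus strand (GENCODE v29, GRCh38, bases 76011184 to 76112802), with no exon shared. Both were lower with Dox. CXCL10 was at 2.49, 2.23, and 1.5 CPM with vehicle and 0.0726, 0.699, and 0.852 CPM with Dox (log2 fold change -2.34 ± 0.53, adjusted p = 0.000374), on 83 and 21 counts in all, a ratio of 0.257 with an exact 95% interval of 0.151 to 0.419. CXCL11 fell from 14.9, 18.3, and 15.8 CPM to 2.18, 2.72, and 4.11 CPM (log2 fold change -2.49 ± 0.20, adjusted p = 2.92e-11). They were the only 2 of the 33 genes called lower upon knockdown.

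With PBITE-1 the 2 chemokines parted. CXCL10 was at 5.32, 6.59, and 6.45 CPM with DMSO, was at 11.7, 8.71, and 9.38 CPM at 4 h, and rose to 22.1, 23.9, and 27.5 CPM at 8 h (log2 fold change 1.97 ± 0.14, adjusted p = 4.97e-16). At 12 h it was at 8.04, 10.9, and 8.53 CPM, and the log2 fold changes of 0.68 at 4 h and 0.57 at 12 h were not called. CXCL11 went from 38.6, 37.9, and 36.2 CPM with DMSO to 24.8, 24.5, and 25.5 CPM at 4 h, a log2 fold change of -0.59 that missed the threshold on size. It fell to 13.8, 11.6, and 12.5 CPM at 8 h (log2 fold change -1.57) and 3.05, 3.53, and 2.69 CPM at 12 h (log2 fold change -3.6 ± 0.16, adjusted p = 7.25e-22), a 12.1-fold fall and the largest of the list. No 2 of its 4 groups overlapped. ART3 moved alongside, with log2 fold changes of -2.40 upon knockdown and -0.31, -1.23, and -4.51 at 4, 8, and 12 h. It fell from 49, 75, and 60 counts with vehicle to 6, 15, and 15 with Dox, and from 123, 91, and 121 counts with DMSO to 3, 3, and 6 at 12 h. Since the use of strand in counting is not given in the sources used here, reads from ART3 and from the chemokines cannot be told apart with certainty, and how far ART3 entered the counts of CXCL11 was not tested.

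Of the 4 antigen presentation genes tested, HLA-B and HLA-C were called higher in both experiments and TAP1 and B2M in neither. HLA-B and HLA-C encode heavy chains of HLA class I, and as near-identical paralogs they may exchange reads with each other. Their annotated exons share 35 bases, and 542 exon bases of HLA-B (17.8%) lie in a pseudogene on the opposite strand. The part of these overlaps in the counts was not tested. HLA-B was at 3.41, 3.99, and 4.04 CPM with vehicle and 13.4, 13.1, and 14.8 CPM with Dox (log2 fold change 1.84 ± 0.16, adjusted p = 1.57e-10). It rose from 14.8, 13.7, and 13.2 CPM with DMSO through 17.8, 17.4, and 17.2 CPM and 24.8, 24, and 24.1 CPM to 31, 34, and 30.8 CPM at 12 h (log2 fold change 1.2 ± 0.09, adjusted p = 1.05e-15), with no overlap between times. HLA-C went from 13.7, 12, and 13.3 CPM to 34.8, 33.7, and 32.6 CPM upon knockdown (log2 fold change 1.39 ± 0.09, adjusted p = 4.41e-13) and from 21.3, 22.2, and 23.1 CPM with DMSO through 30.7, 28.3, and 30.1 CPM at 4 h and 37.9, 41.1, and 41.5 CPM at 8 h to 48.7, 47.3, and 47.8 CPM at 12 h (log2 fold change 1.11 ± 0.07, adjusted p = 4.18e-17).

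B2M had log2 fold changes of 0.40, 0.71, and 0.89 at 4, 8, and 12 h, and stayed below the threshold on size, while upon knockdown it was at 0.07 ± 0.03 (SE, adjusted p = 0.0584). TAP1, which carries peptides to HLA class I, was at 11.3, 8.66, and 9.99 CPM with DMSO and 20.2, 18.8, and 20 CPM at 12 h (log2 fold change 0.99 ± 0.11, adjusted p = 8.58e-11). It passed 1 without DMSO replicate 1 (1.07) or without replicate 2 at 12 h (1.02).

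**Figure D4:**
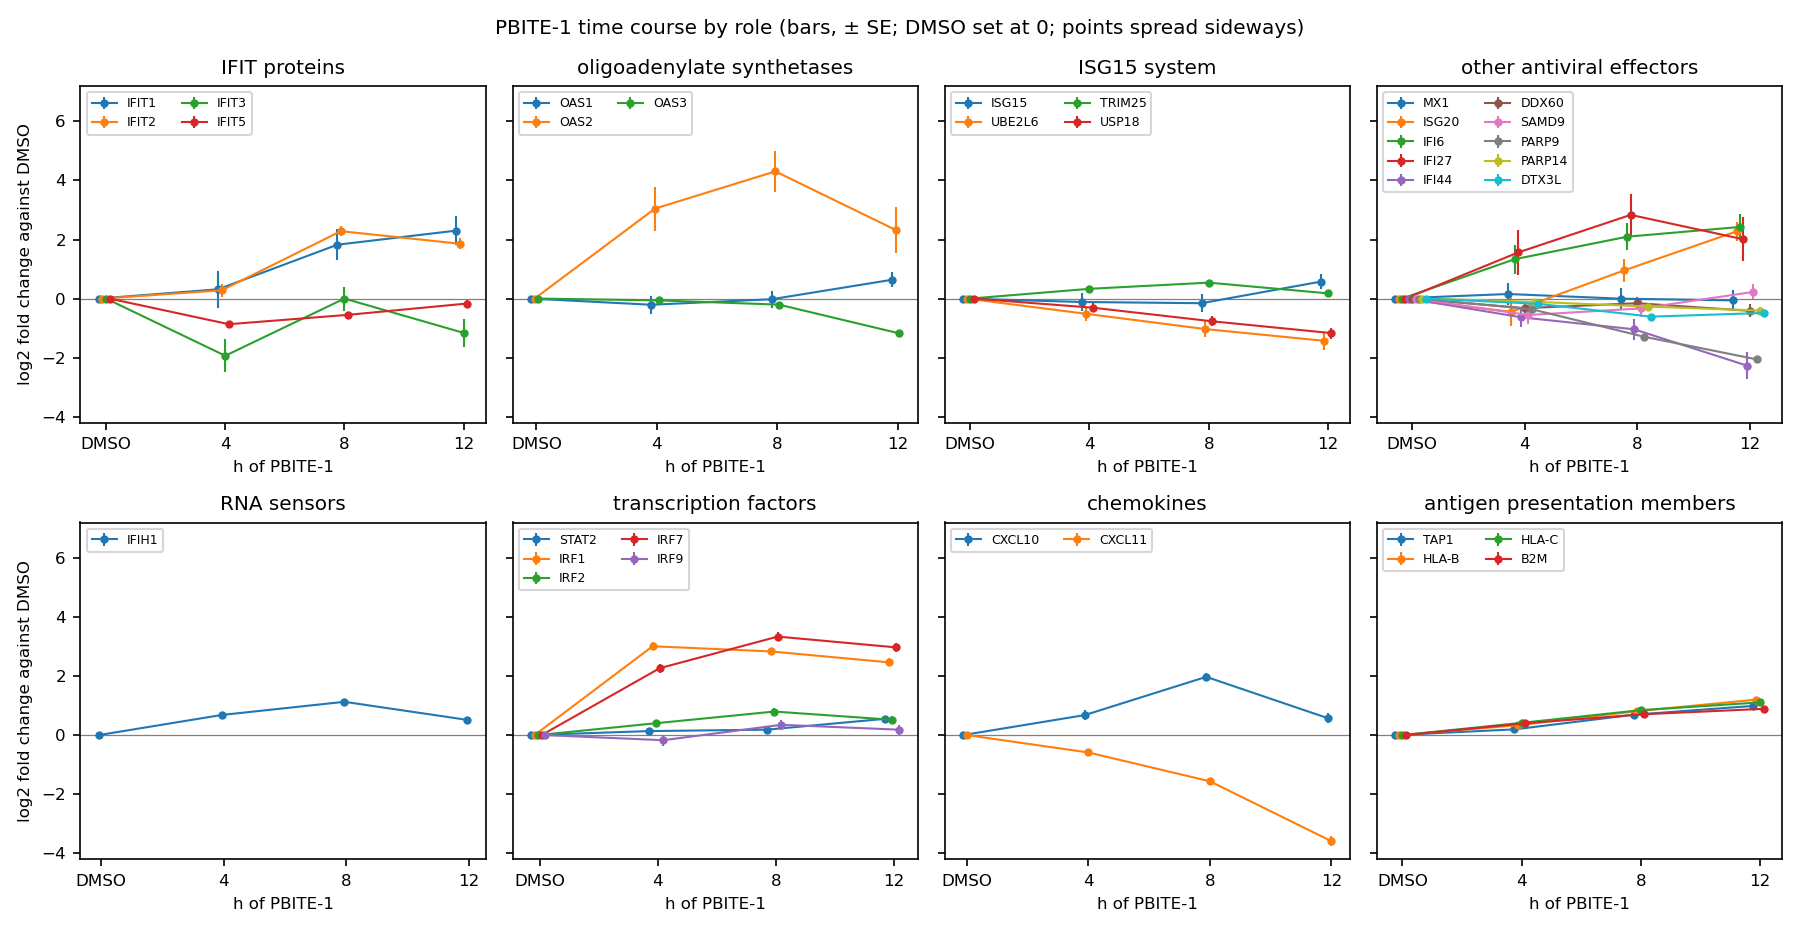
Log2 fold change against DMSO (y axis, ± SE) at 4, 8, and 12 h of PBITE-1 (x axis, DMSO set at 0) for the 33 genes tested, in panels by role. IRF1 and OAS2 are up at 4 h, CXCL10, OAS2, and IFIH1 peak at 8 h, and CXCL11, PARP9, IFI44, OAS3, and USP18 are lowest at 12 h.

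Time was tested directly between 12 h and 4 h, a contrast that does not use the DMSO means, while the spread was estimated over all 12 parental samples. No DMSO sample is labelled with a time, so that the duration of PBITE-1 and the time in culture cannot be told apart. Of the 33 genes, 4 were higher at 12 h (9.08% of all genes) and 4 lower (11.0%). IFIT1 (log2 fold change 1.99), IFIT2 (1.58), ISG20 (2.72), and IFI6 (1.09) were higher, and OAS3 (-1.12), IFI44 (-1.63), PARP9 (-1.70), and CXCL11 (-3.01) lower. The antigen presentation genes HLA-B, HLA-C, TAP1, and B2M were higher at 12 h by 0.87, 0.69, 0.80, and 0.49 on the log2 scale (adjusted p at most 3.92e-08) and were not called. IRF1 was lower at 12 h than at 4 h by a log2 fold change of -0.55 (adjusted p = 8.64e-08).

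The responses to PBITE-1 at 12 h and to Dox were compared gene by gene in a fit of all 18 samples. They came from different lines and experiments, so that treatment and line cannot be told apart. The response to PBITE-1 was called lower than that to Dox for 12 of the 33 genes, a share of 36.4% against 15.9% of all genes, and higher for 4, a share of 12.1% against 13.0%. The lower 12 were IFIT1, IFIT2, IFIT3, UBE2L6, USP18, MX1, IFI44, DDX60, SAMD9, PARP9, PARP14, and CXCL11. The difference was largest for UBE2L6 (log2 difference -3.70 ± 0.38, SE, adjusted p = 9.87e-12), IFI44 (-3.60 ± 0.53, adjusted p = 9.08e-08), IFIT3 (-3.06 ± 0.68, adjusted p = 0.000112), and PARP9 (-2.97 ± 0.14, adjusted p = 1.22e-23). The higher 4 were CXCL10 (2.87 ± 0.57, adjusted p = 2.11e-05), IRF7 (2.55 ± 0.22, adjusted p = 5.8e-14), IRF1 (2.33 ± 0.24, adjusted p = 1.55e-11), and ISG20 (1.43 ± 0.62, adjusted p = 0.0397).

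Of these calls, those of IFIT1 (-1.58, adjusted p = 0.0489) and ISG20 were weak. IFIT1 was not called by edgeR's quasi-likelihood test (-1.25, adjusted p = 0.13), by DESeq2 (-1.24, adjusted p = 0.126), or without vehicle replicate 1 (-1.04, adjusted p = 0.202), and ISG20 not without vehicle replicate 1 (0.97, adjusted p = 0.221) or DMSO replicate 3 (1.18, adjusted p = 0.107). CXCL11 was not called without Dox replicate 3 (-0.89), and IFIT2 not without DMSO replicate 3 (-0.99), Dox replicate 1 (-0.88), or replicate 1 at 12 h (-0.93), each at an adjusted p under 0.05. Scaling by library size alone moved the share of higher among all called genes in this comparison from 44.9% to 30%. Then 15 of the 33 were lower and 3 higher, against 21.6% and 9.27% of all genes. For IFI6 and IFI27 the responses differed by 0.21 ± 0.62 and 0.14 ± 0.93 (SE), and neither difference passed the test.

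**Figure D5:**
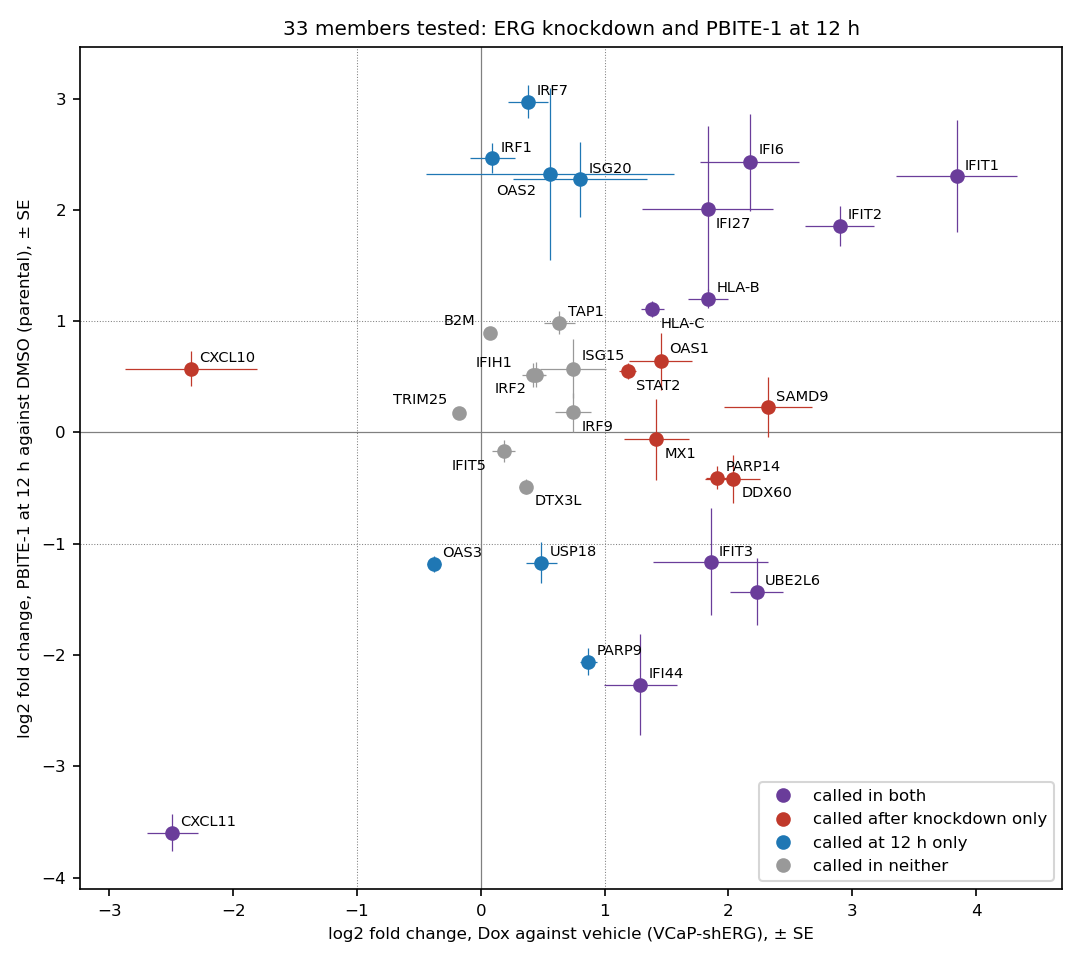
Log2 fold change upon ERG knockdown (x axis) and at 12 h of PBITE-1 (y axis) for the 33 genes tested, each with its SE, colored by where the gene was called. IFIT1, IFIT2, IFI6, IFI27, HLA-B, and HLA-C lie at the upper right, IFIT3, UBE2L6, and IFI44 at the lower right, and CXCL11 alone at the lower left.

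The starting levels of the 2 lines differed. VCaP-shERG cells with vehicle were called lower than parental cells with DMSO for 6 of the 33 genes, a share of 18.2% against 5.00% of all genes, and higher for 0, against 1.19%. HLA-B was lower by a log2 difference of -2.01 ± 0.16 (SE), CXCL10 by -1.74 ± 0.28, SAMD9 by -1.41 ± 0.37, IFIT2 by -1.39 ± 0.32, CXCL11 by -1.36 ± 0.09, and DDX60 by -1.14 ± 0.25, the last not called without vehicle replicate 2 (-0.98). The edgeR and DESeq2 tests also called 6 lower and 0 higher, and 6 of the 33 genes were higher at an unadjusted p under 0.05 in the limma fit. With Dox, HLA-B reached a mean of 13.8 CPM, close to the 13.9 CPM of parental cells with DMSO, while IFIT2, SAMD9, and DDX60 reached 11.6, 3.87, and 8.92 CPM, above the 3.6, 1.82, and 4.23 CPM of parental cells. These means were scaled within each experiment. Line, vector, and experiment cannot be told apart.

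Lists of other interferon genes, also chosen with earlier results of these data known, were counted in the same way. Of 37 further interferon-stimulated genes, 25 were tested, and upon knockdown 10 were higher, a share of 40% against 12.0% of all genes, and 0 lower by limma (2 lower at an unadjusted p under 0.05), with DDX60L (log2 fold change 3.13) and APOL6 (2.88) the highest. At 12 h of PBITE-1, 4 were higher, a share of 16% against 17.1% of all genes, and 6 lower, a share of 24% against 15.4%. HELZ2, a helicase, had 229, 222, and 279 counts with DMSO and 992, 1128, and 1179 at 12 h (log2 fold change 2.35), and SHFL, an inhibitor of viral frameshifting, fell (-1.58). GBP2, a GTPase of the interferon gamma response, had 1 count over the 3 DMSO samples together and 37, 40, and 47 counts at 12 h. Of 18 genes of interferon signalling, 16 were tested, with 2 higher upon knockdown, a share of 12.5% near the 12.0% of all genes, and 5 at 12 h, a share of 31.2% against 17.1%, and 0 lower in either by limma, where 2 were lower at an unadjusted p under 0.05 in each. SOCS3, an inhibitor of cytokine signalling, rose upon knockdown (2.69 ± 0.66), from 0, 6, and 7 counts with vehicle to 14, 29, and 17 with Dox. At 12 h it was also higher (2.93 ± 0.71), at 10, 14, and 7 counts against 0, 1, and 4 with DMSO. Both starting levels were near the floor of 3 counts, so that the sizes are uncertain. Its relative SOCS1 went from 1 count over the 3 DMSO samples together to 15, 35, and 49 at 12 h. The interferon genes of this list, IFNB1 and IFNL1, had 5 counts and 1 count over all samples together. Some genes of the pathway lists passed the filter on low counts only through treated samples. GBP2, SOCS1, and the nucleic acid sensor ZBP1 did so through PBITE-1 samples, and SOCS3 and NLRC5 through Dox and PBITE-1 samples. Such genes count in the shares upon knockdown and at 12 h. The other filters were not applied to the pathway lists.

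Of 16 genes of nucleic acid sensing, 11 were tested. Upon knockdown 2 were higher (18.2% against 12.0% of all genes) and 1 lower (9.09% against 7.19%), and at 12 h 2 were higher (18.2% against 17.1%) and 3 lower (27.3% against 15.4%). STING1, the adaptor of the DNA sensor cGAS, had 29, 28, and 32 counts with DMSO and 2, 1, and 3 at 12 h, and TLR3, an endosomal RNA sensor, fell by a log2 fold change of -3.13. Of 19 further genes of antigen presentation, 18 were tested, with 4 higher (22.2% against 12.0% of all genes) and 0 lower upon knockdown by limma (5 lower at an unadjusted p under 0.05) and 5 higher (27.8% against 17.1%) and 3 lower (16.7% against 15.4%) at 12 h. NLRC5, the activator of HLA class I genes, rose in both (3.05 and 1.78), on 3, 4, and 1 counts with vehicle and 25, 22, and 22 with Dox. HLA-E rose at 12 h (3.07), and the immunoproteasome subunit PSMB10 fell (-1.99).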

How the data were processed

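RNA was measured in 18 samples of VCaP and VCaP-shERG cells by paired-end sequencing of libraries depleted of ribosomal RNA. The authors deposited a table of raw counts per gene. The submitters' processing notes name STAR and featureCounts on hg38, while the study's methods name Kallisto, and the annotation release and the use of strand are not given in the sources used here. Gene symbols were paired with 20551 of 22034 gene identifiers. Replicates are biological by the study's methods, and samples were grouped by their labels.

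Counts were scaled by TMM (edgeR 4.0.16) and tested with limma-voom (limma 3.58.1, R 4.3.3). The shERG and parental experiments were fitted separately, and comparisons across them in a fit of all 18 samples. Genes kept by filterByExpr over the 6 groups were adjusted together by the Benjamini-Hochberg method, and a call needed a log2 fold change beyond 1 in either direction with an adjusted p under 0.05. P-values are two-sided. CPM per kb used the union of exons in GENCODE v29. Ratios of summed counts carry exact 95% intervals for counting error only. The tests were checked on simulated data. Other tests (DESeq2 1.42.0 and edgeR's quasi-likelihood fit), scalings, filters and thresholds, other sets of samples in the fit, a replicate block, and leaving out each replicate were tried as alternatives. The filter on a mean of at least 10 counts was chosen after seeing the data.

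All 38 genes are named. Values in every sample are given, as CPM or counts, for genes called upon knockdown or at any time of PBITE-1, and of the 4 other pathway lists only from the 2 lowest and 2 highest called genes upon knockdown and at 12 h. The members and lists were chosen with earlier results of these data known. Motifs were counted as letters on both strands, and promoter sequences came from RefSeq (GRCh38.p14).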

Additional observations from a re-analysis of the deposited data

Results flagged for a closer look

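For 8 genes the level differed between 12 h and 4 h of PBITE-1 in the direct test of the 2 times. The shares were 12.1% higher and 12.1% lower of the 33 genes, near the 9.08% and 11.0% of all genes. IFIT1, IFIT2, ISG20, and IFI6 were higher at 12 h, by log2 differences of 1.99, 1.58, 2.72, and 1.09. OAS3, IFI44, PARP9, and CXCL11 were lower, by log2 differences of -1.12, -1.63, -1.70, and -3.01. All samples at 12 h lay on 1 side of all samples at 4 h for each of these genes. They were picked by that test, so this is no separate support. The difference of IFI6 was 0.86, and no longer called, without replicate 1 at 4 h.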

How the results depend on the processing

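Under the alternatives, 3656 values of single genes kept their side of the threshold, 38 no longer passed it, and 16 newly passed it. A change of sign was counted only with an adjusted p under 0.05 in the main or the alternative fit. Other changes of sign are among the 3656, such as IRF1 upon knockdown (-0.03 to 0.354). By that rule only the log2 fold change of TRIM25 upon knockdown changed sign, to 0.088, with scaling by library size alone. With at least 10 counts in every sample fewer genes were tested, and 1 was lower and 8 higher upon knockdown (6.34% and 7.75% of all genes). Lower and higher were 0 and 2 at 4 h (1.8% and 4.69%) and 3 and 4 at 8 h (6.67% and 11.5%). They were 5 and 5 at 12 h (13.3% and 13.9%) and 3 and 1 between 12 h and 4 h (9.03% and 6.85%). In the comparison of responses they were 7 lower and 2 higher (12.8% and 11.7% of all genes). With a log2 fold change above 0.5, 2 were lower and 19 higher upon knockdown, 3 and 6 at 4 h, and 7 and 16 at 8 h. At 12 h the counts were 7 and 18, and between 12 h and 4 h they were 7 and 12. Between responses they were 18 and 5, and in untreated VCaP-shERG cells 7 and 2. Above 1.5, 2 were lower and 10 higher upon knockdown, 1 and 3 at 4 h, and 1 and 8 at 8 h. At 12 h the counts were 3 and 8, and between 12 h and 4 h they were 3 and 3. Between responses they were 10 and 3, and in untreated VCaP-shERG cells 2 and 0. The shares of all genes also change with the threshold and are not given here.

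Leaving out each replicate gave 2 lower and 15 to 16 higher upon knockdown. The ranges were 0 to 1 lower (0 without replicate 2 at 4 h) and 3 to 4 higher at 4 h, 2 to 4 lower (2 without DMSO replicate 1) and 9 to 10 higher at 8 h, and 6 to 7 lower and 9 to 11 higher at 12 h. Between 12 h and 4 h they were 4 to 5 in either direction, between responses 10 to 13 lower and 3 to 4 higher, and between lines 5 to 6 lower and 0 higher. Replicate numbers did not pair the samples (correlations of -0.023 to 0.041 over 21 pairs, 7 of them best with their own number). With a replicate block, 15 genes were higher upon knockdown, 7 lower at 12 h, and 11 lower between responses. The shares of all genes are not given for the fits of this paragraph. These counts show only how far the calls of the list varied, and not whether they differed from all genes. Genes with few counts, such as IFIT3, OAS2, and IFI27, have wide errors at this depth.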
